A study of Mus musculus with 6 samples.

Results

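Arc, Npas4, Btg2, Ier2, Ier5 and Sik1 are 6 rapid primary response genes among the 23284 genes of the deposited count table. They were chosen from earlier results of these data, namely the difference between housing conditions and the spread among group-housed libraries. Their housing differences are therefore given as a description, with no test. All 6 passed the filter on low counts and were among the 15258 genes fitted. The RNA came from prefrontal cortex of wild-type C57BL/6 mice aged 8 to 10 weeks. There were 3 libraries from mice housed singly and 3 from mice housed in groups, each for 6 days, and no allele or agent is named for either group. The labels do not say whether a library came from its own animal, so the spread between libraries may be partly technical.

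Rapid primary response genes are transcribed by factors already present in the cell, such as CREB and SRF, and need no new protein to be switched on. In cortical neurons they follow calcium entry and kinase signalling within minutes of activity. Their transcripts are short-lived, so they are widely used as marks of neurons that were recently active. The set covers a synaptic effector (Arc), a transcription factor (Npas4), regulators of transcription, translation or mRNA stability (Btg2, Ier2 and Ier5) and a kinase that restrains CREB coactivators (Sik1).

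The promoters of Npas4, Btg2 and Ier5 are shown because CREB sites and TATA motifs are textbook features of activity-induced promoters. These 3 of the 6 genes matched the RefSeq promoter table (GRCm38.p6). Each line holds the 250 bases before the annotated start, 5′ to 3′ on the minus strand that carries the gene, with matches to TGACG (either strand) or TATATAA in capitals.
Npas4 (chr19:4989972-4990221): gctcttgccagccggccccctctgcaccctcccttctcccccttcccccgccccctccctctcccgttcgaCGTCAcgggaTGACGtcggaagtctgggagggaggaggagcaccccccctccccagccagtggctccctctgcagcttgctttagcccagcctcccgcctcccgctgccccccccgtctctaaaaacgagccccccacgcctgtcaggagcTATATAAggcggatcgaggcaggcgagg
Btg2 (chr1:134079156-134079405): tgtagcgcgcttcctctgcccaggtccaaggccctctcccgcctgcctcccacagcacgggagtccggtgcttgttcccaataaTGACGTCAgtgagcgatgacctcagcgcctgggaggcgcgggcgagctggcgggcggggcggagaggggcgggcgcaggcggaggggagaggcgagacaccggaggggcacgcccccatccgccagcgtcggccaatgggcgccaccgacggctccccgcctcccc
Ier5 (chr1:155099637-155099886): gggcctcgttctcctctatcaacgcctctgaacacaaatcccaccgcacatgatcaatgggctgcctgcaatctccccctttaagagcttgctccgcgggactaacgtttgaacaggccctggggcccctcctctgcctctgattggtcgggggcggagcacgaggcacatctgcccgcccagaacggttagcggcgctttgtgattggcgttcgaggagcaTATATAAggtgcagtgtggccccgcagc

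Btg2 held the full palindromic cyclic AMP response element TGACGTCA, which its overlapping TGACG matches form together, with its first base at −166 from the start. Of 32851 promoter windows of this length, 1.55% held TGACGTCA. Npas4 held TGACG in the printed direction with its first base at −169 and on the opposite strand at −179, and TGACG on either strand was in 17.8% of all windows. Ier5 had no match to TGACG in this window. TATATAA, a motif added after the sequences were read, lay at −28 in both Npas4 and Ier5 and was in 3.04% of all windows. The SP1 motif GGGCGG was found in all 3 promoters and in 32.7% of all windows. None of the 3 held the CArG box bound by SRF, the TATA box letters TATAAA, the AP-1 motif TGANTCA or the ETS motif CCGGAA, searched on both strands. The shares of all windows were 1.47%, 12.4%, 6.75% and 12% in that order. GCGNGGGCG, the letters of an EGR site, matched in Btg2 and in 4.70% of windows. Among other rapid primary response genes, 14 of 22 with a promoter in the table held TGACG and 3 of 22 held the CArG box. Such a gene was counted if any of its windows matched, so these counts are not shares of windows. The 3 promoters had a GC content of 60.0% to 73.2%, against a median of 52.4% over all windows.

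Total counts were 32902303 to 33428512 in the single-housed libraries and 25858355 to 32088512 in the group-housed libraries, with group-housed replicate 1 the lowest. Excitatory cortical neuron markers were present in each library, with all 10 listed genes detected and a summed level of 2669 to 2927 CPM (counts per library size of 1000000) in single-housed mice, against 2695 to 2972 CPM in group-housed mice. Striatal markers varied more, with a summed level of 701 to 2999 CPM in single-housed mice, against 732 to 1511 CPM in group-housed mice, over the 20 of 22 listed symbols that have a row. The sums overlapped, but in the fit described below 20 of these markers were higher in single-housed mice and 0 lower. Isl1, a developmental factor of striatal neurons, was the marker of this list that reached 0 counts in a library. Group-housed replicate 1 had the highest striatal sum of its group (1511 CPM), and also the highest sum of 7 oligodendrocyte markers (5392 CPM against 1969 and 3110 CPM in the other group-housed libraries). The oligodendrocyte sums of single-housed replicates 1, 2 and 3 were 4217, 4015 and 1995 CPM. In the fit 6 of these oligodendrocyte markers were lower and 1 higher in single-housed mice. The microglial sum was 354 to 370 CPM in single-housed mice, against 346 to 425 CPM in group-housed libraries. The fit had 6 microglial markers lower and 0 higher in single-housed mice, and 0 lower and 6 higher for meningeal fibroblast markers. Blood markers, where 4 of 5 listed symbols have a row, summed to at most 5.40 CPM in single-housed mice, against 17.4 CPM in group-housed mice, with Hbb-b1 and Hba-a1 at 0 throughout. The part of these markers in the results below was not tested, although further fits below take striatal markers into account as a description. In bulk tissue, fewer cells that express a gene and less RNA per cell cannot be told apart.

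Levels below are CPM scaled by TMM, and differences are the log2 of single-housed over group-housed levels from edgeR's quasi-likelihood fit over all genes. In that fit 0 of 15258 genes (0%) passed an adjusted p of 0.05. At an unadjusted p under 0.05, 0.727% of genes were lower and 0.832% were higher in single-housed mice. The groups did not overlap for 2 of the 6 genes, Arc and Ier5, both lower in single-housed mice. Over all genes tested, 2.4% did not overlap in that direction and 2.46% in the other. Because the 6 genes were chosen on this contrast, nothing is read from their share.

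Arc encodes a postsynaptic protein that removes AMPA-type glutamate receptors from the membrane and forms capsid-like particles that carry RNA. It lies on the minus strand of chromosome 15, 74499513 to 74503000 (mm9, as deposited), with 3 exon blocks. Arc was at 43.5, 116 and 78.6 CPM in single-housed replicates 1, 2 and 3, against 359, 141 and 157 CPM in group-housed replicates 1, 2 and 3. Every single-housed library was below every group-housed library, and both groups were uneven, with a 2.67-fold range among single-housed and a 2.54-fold range among group-housed libraries. The log2 difference was −1.46 (SE 0.416, n = 3 each), with means of 79.5 ± 36.4 CPM in single-housed mice, against 219 ± 121 CPM in group-housed mice (SD). Without group-housed replicate 1 the log2 difference was −0.91, and the 2 remaining group-housed libraries, averaging 149 CPM, still lay above all 3 single-housed ones.

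**Figure D1:**
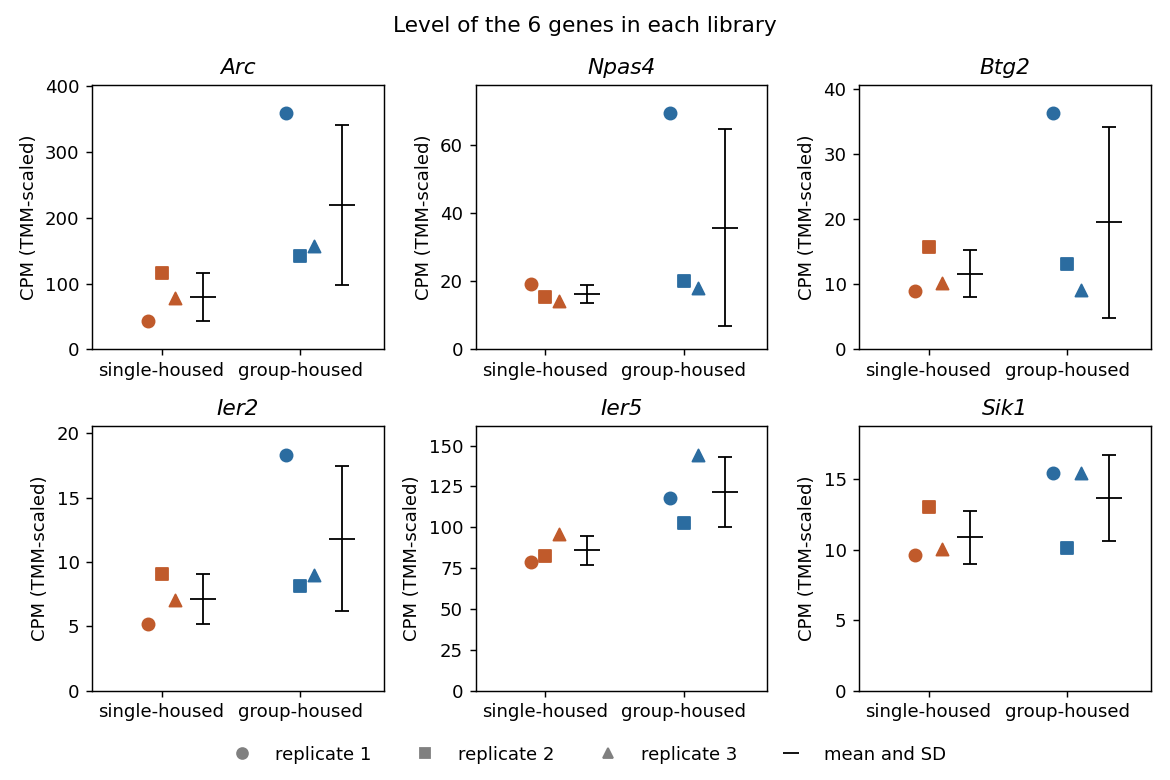
TMM-scaled CPM (vertical axes, starting at 0) of each gene in the 3 single-housed and 3 group-housed libraries, with marker shape for the replicate number and bars for mean and SD. Group-housed replicate 1 is the highest library for 5 of the 6 genes, and group-housed replicate 3, at 145 CPM, is the highest for Ier5. For Sik1 these 2 libraries are nearly tied, at 15.45 CPM in replicate 1 and 15.43 CPM in replicate 3.

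Npas4 encodes a neuron-restricted bHLH-PAS transcription factor that is induced by calcium entry and regulates inhibitory synapses onto the active neuron. It lies on chromosome 19, 4984355 to 4989971 (mm9, minus strand), in 8 exon blocks. Npas4 was at 19.4, 15.4 and 14.3 CPM in single-housed replicates 1, 2 and 3, against 69.4, 20.1 and 18.0 CPM in group-housed replicates 1, 2 and 3. The single-housed libraries spanned a 1.35-fold range, and group-housed replicate 1 was 3.64-fold above the mean of the other group-housed libraries. Group-housed replicate 3 was below single-housed replicate 1, so the groups overlapped. The log2 difference was −1.13 (SE 0.465), with means of 16.3 ± 2.66 CPM in single-housed mice, against 35.8 ± 29.1 CPM in group-housed mice (SD, n = 3 each). Without group-housed replicate 1 it was −0.22.

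The log2 range of Npas4 was 1.94 over the group-housed libraries, a spread that its choice used and that is given as a description. Over the single-housed libraries its range was 0.43, wider than for 93.2% of the 2336 genes within 0.5 log2 CPM of it in mean level. It was wider than for 82.7% of all genes tested. Among genes of like level, the share was 99.7% for Arc, 98.2% for Btg2, 97.4% for Ier2, 90.4% for Sik1 and 89.2% for Ier5. For the 6 genes the Poisson coefficient of variation of a single count was 1.02% to 7.69%. The coefficient of variation between libraries was 10.5% to 45.8% within the single-housed group and 17.4% to 81.2% within the group-housed group.

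Btg2 encodes an antiproliferative adaptor that brings the CCR4-NOT deadenylase to mRNAs. It lies on chromosome 1, 135971442 to 135975732 (mm9, minus strand), in 2 exon blocks. Btg2 was at 8.92, 15.8 and 10.2 CPM in single-housed replicates 1, 2 and 3, against 36.3, 13.2 and 9.08 CPM in group-housed replicates 1, 2 and 3. Only group-housed replicate 1 was above all single-housed libraries, and the other 2 group-housed libraries fell within the single-housed range. The log2 difference was −0.74 (SE 0.460), with means of 11.6 ± 3.65 CPM in single-housed mice, against 19.5 ± 14.7 CPM in group-housed mice (SD, n = 3 each). Without group-housed replicate 1 its sign turned, to 0.07. Its 3.99-fold range over group-housed libraries was the widest of the 6 genes.

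Ier2 and Ier5 are related immediate early genes, each annotated in 1 exon block, that encode nuclear proteins involved in transcription. IER5 is known to promote the activity of the heat shock factor HSF1 through protein phosphatase 2A. Ier2 (chromosome 8, 87185230 to 87186751, mm9, minus strand) was at 5.16, 9.06 and 7.05 CPM in single-housed replicates 1, 2 and 3, against 18.3, 8.15 and 8.95 CPM in group-housed replicates 1, 2 and 3. As for Btg2, group-housed replicate 1 stood above every other library and the remaining libraries overlapped. The log2 difference of Ier2 was −0.73 (SE 0.319), and −0.27 without group-housed replicate 1. Its means were 7.09 ± 1.95 CPM in single-housed mice, against 11.8 ± 5.67 CPM in group-housed mice (SD, n = 3 each).

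Ier5 (chromosome 1, 156943497 to 156946766, mm9, minus strand) was at 79.0, 82.6 and 96.1 CPM in single-housed replicates 1, 2 and 3, against 118, 103 and 145 CPM in group-housed replicates 1, 2 and 3. The groups did not overlap, and group-housed replicate 3 rather than 1 was the highest library. The log2 difference was −0.50 (SE 0.130), with means of 85.9 ± 8.99 CPM in single-housed mice, against 122 ± 21.2 CPM in group-housed mice (SD, n = 3 each). It ranged from −0.61 to −0.36 when each library was left out in turn. Ier5 had the smallest coefficient of variation of the 6 genes in both groups, 10.5% among single-housed and 17.4% among group-housed libraries.

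Sik1 encodes a salt-inducible serine/threonine kinase that phosphorylates CRTC coactivators of CREB and class IIa histone deacetylases. It lies on chromosome 17, 31981195 to 31992737 (mm9, minus strand), in 14 exon blocks, the longest gene of the set. Sik1 was at 9.59, 13.0 and 10.0 CPM in single-housed replicates 1, 2 and 3, against 15.4, 10.1 and 15.4 CPM in group-housed replicates 1, 2 and 3. Group-housed replicate 2 lay among the single-housed libraries, and the other group-housed libraries were above all of them. The log2 difference was −0.33 (SE 0.185), the smallest of the 6, with means of 10.9 ± 1.86 CPM in single-housed mice, against 13.7 ± 3.07 CPM in group-housed mice (SD, n = 3 each). Without group-housed replicate 2 it was −0.51.

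**Figure D2:**
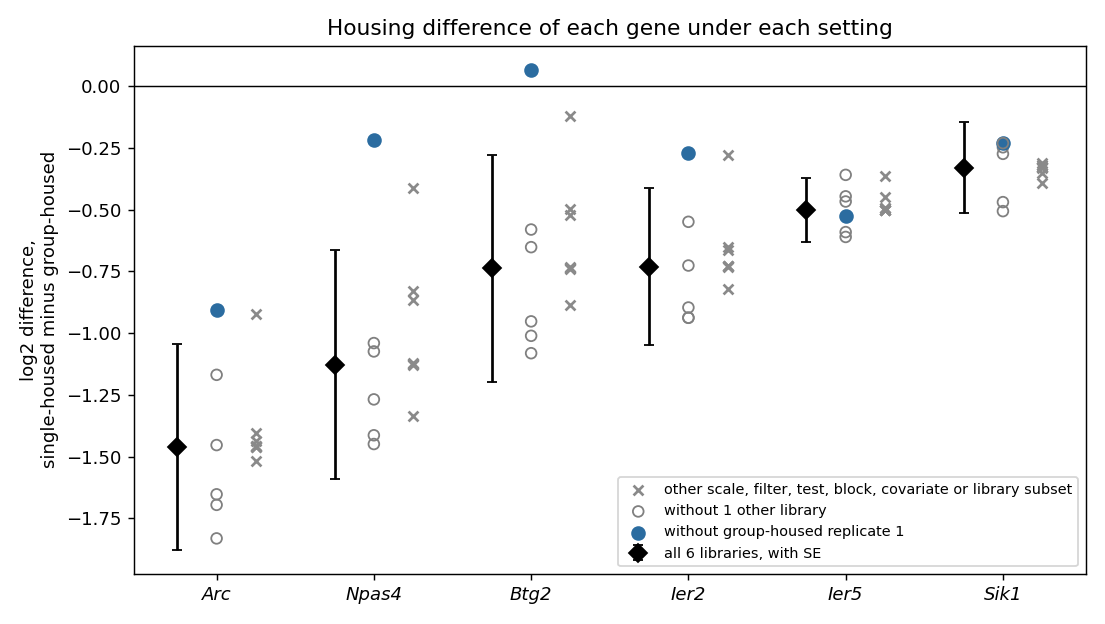
Log2 difference between single-housed and group-housed mice (vertical axis) for each gene with all 6 libraries and its SE (diamonds), without 1 library (circles) and under the other settings (crosses), which include the fit on the 3 libraries with low striatal markers. Leaving out group-housed replicate 1 moves Npas4 from −1.13 to −0.22 and Btg2 to 0.07, while Ier5 is at −0.52.

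Group-housed replicate 1 was at least 2-fold above the mean of the other group-housed libraries for 4 of the 6 genes (Arc, Npas4, Btg2 and Ier2) and for 1.64% of all genes tested, a threshold chosen after the values were seen. Because the 6 genes were chosen partly on their spread among group-housed libraries, nothing is read from that share. It was 0.952 times that mean for Ier5 and 1.21 times for Sik1. Of 27 other rapid primary response genes, 1 reached 2-fold, although group-housed replicate 1 was the highest library for 13 of them. Some fell just short of that threshold. Dusp1 was at 47.6 CPM in group-housed replicate 1, against 25.2 and 25.5 CPM in replicates 2 and 3. Junb was at 94.3 CPM, against 38.9 and 62.6 CPM. Egr3 went the other way, at 51.6 CPM, against 96.4 and 101.8 CPM. The threshold followed the values, so nothing is read from 4 of 6 against 1 of 27. Single-housed replicate 1 was the lowest library for 5 of the 6 genes, the exception being Npas4, which was lowest in single-housed replicate 3. It was the lowest for 10 of the 27 other genes. Single-housed replicate 1 also had the highest striatal sum of all libraries, 2999 CPM.

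Striatal markers were taken into account in 2 further fits. With their mean as a covariate the log2 differences were −1.52 for Arc, −1.34 for Npas4, −0.89 for Btg2, −0.82 for Ier2, −0.45 for Ier5 and −0.39 for Sik1. On the 3 libraries below the overall striatal mean, single-housed replicate 3 against group-housed replicates 2 and 3, Arc differed by −0.92, Npas4 by −0.41, Btg2 by −0.12 and Ier2 by −0.28. Ier5 and Sik1 differed by −0.36 and −0.35 there. That subset leaves out group-housed replicate 1 and assumes that the lone single-housed library varies like the group-housed ones.

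**Figure D3:**
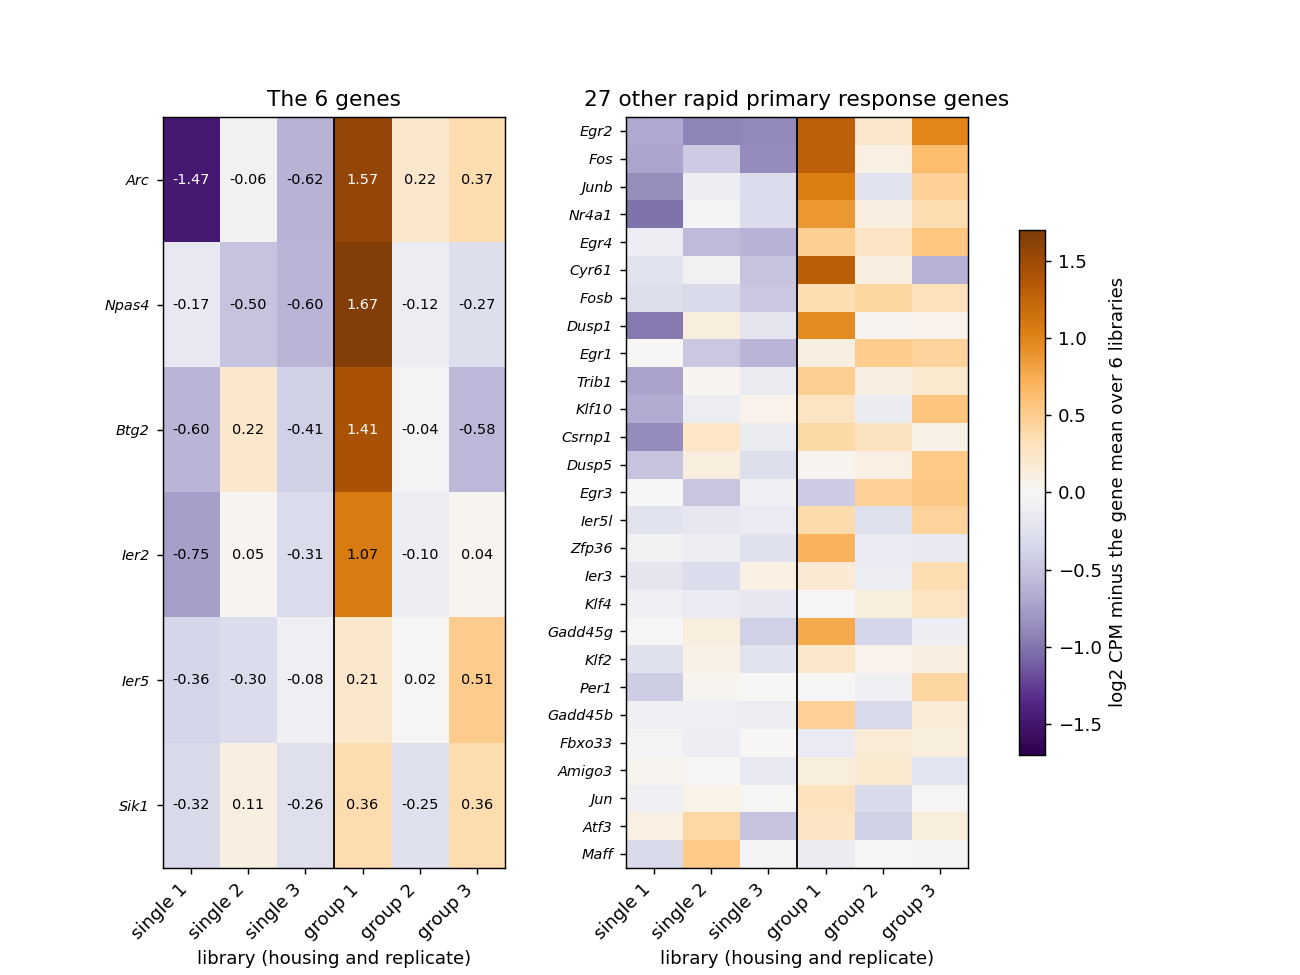
Log2 CPM of each gene minus its mean over the 6 libraries (colour, with values printed for the 6 genes), with single-housed libraries left of group-housed ones; the other rapid primary response genes are ordered by housing difference. Npas4 is 1.67 above its mean in group-housed replicate 1 and 0.60 below it in single-housed replicate 3, while Ier5 peaks at 0.51 in group-housed replicate 3.

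Per kilobase of exon, Arc and Ier5 were the abundant members. In single-housed mice Ier5 was at 26.3 ± 2.75 and Arc at 26.0 ± 11.9 CPM per kb (SD, n = 3), and their libraries overlapped. In group-housed mice Arc was at 71.6 ± 39.7 and Ier5 at 37.2 ± 6.48 CPM per kb, without overlap. Npas4 came next, at 4.99 ± 0.813 CPM per kb in single-housed mice, against 10.9 ± 8.87 in group-housed mice. Ier2 was at 4.66 ± 1.28 CPM per kb in single-housed mice, against 7.76 ± 3.72 in group-housed mice. Btg2 was at 3.78 ± 1.18 CPM per kb in single-housed mice, against 6.33 ± 4.76 in group-housed mice. Npas4 overlapped with Ier2, and Ier2 with Btg2, in both groups. Sik1 was the lowest, at 2.41 ± 0.413 CPM per kb in single-housed mice, against 3.03 ± 0.682 in group-housed mice, and it overlapped with Btg2 only in group-housed mice.

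Ratios between the genes within a library do not depend on library scaling, and they were not constant. Per kilobase, Arc was 2.41, 8.11 and 5.89 times Npas4 in single-housed replicates 1, 2 and 3, against 5.54, 7.56 and 9.32 times in group-housed replicates 1, 2 and 3. These ratios overlapped between the groups. Arc was 4.20, 6.39 and 5.55 times Ier2 in the single-housed libraries, against 9.74, 8.64 and 8.70 times in the group-housed ones, with no overlap. The ratio of Arc to Ier5 was 0.590, 1.50 and 0.875 in single-housed, against 3.26, 1.47 and 1.16 in group-housed libraries, and overlapped. Npas4 was 2.04, 0.916 and 1.32 times Btg2 in single-housed, against 1.80, 1.43 and 1.87 times in group-housed libraries. This ratio overlapped too. Because the genes were chosen on the housing contrast, nothing is read from which ratios overlap.

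Genes were also compared by the root mean square difference between their centred log2 CPM profiles over the 6 libraries. The profiles were not scaled, so this distance reflects the size of a gene's variation as well as its shape. The SD of log2 CPM over the 6 libraries was 1.02 for Arc, against 0.33 for Ier5 and 0.32 for Sik1. Among the 6, Ier5 and Sik1 were closest (0.23 log2 units), followed by Btg2 with Ier2 (0.31), while Arc and Ier5 were farthest apart (0.76). Of 791 other genes with a mean CPM of at least 5 and an SD of log2 CPM of at least 0.25, those nearest to Arc were Nr4a1, an orphan nuclear receptor gene (0.36), Dusp1, a MAP kinase phosphatase gene (0.40), and Fos (0.40). Nearest to Ier2 were Dusp1 (0.13), the AP-1 gene Junb (0.19) and Nr4a1 (0.20). Dusp1 was also nearest to Btg2 (0.37), followed by Arl4d, a small GTPase gene (0.42).

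Ier5 and Sik1 had other neighbours. Those of Ier5 were Spry4 (0.10) and Dusp6 (0.11), which encode inhibitors of ERK signalling, and Ier3 (0.13). Those of Sik1 were Tiparp, an ADP-ribosyltransferase gene (0.08), Sertad1, a transcriptional regulator gene (0.08), and H2-T23, a class I histocompatibility gene (0.10). Nearest to Npas4, at a larger distance, were Rn45s (0.44), Arl4d (0.44) and Gadd45g (0.48), a growth arrest and DNA damage gene. Rn45s is the 45S precursor of ribosomal RNA, which poly(A) selection is meant to remove. It was at 1422, 1288 and 1781 CPM in single-housed replicates 1, 2 and 3, against 3176, 1718 and 1792 CPM in group-housed replicates 1, 2 and 3. Its highest library was thus also group-housed replicate 1. Its part in the Npas4 result was not tested.

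Other rapid primary response genes lay on the same side. Of 27 measured, 25 had a lower level in single-housed mice, with a median log2 difference of −0.43, where 49.3% of all genes tested were lower and the median was 0.0015. This list and the lists below were drawn up with earlier results of these data known, so their counts are given as a description. None of the 27 passed an adjusted p of 0.05 in edgeR. At an unadjusted p under 0.05, 9 were lower, as were 0.727% of all genes tested. In 8 the groups did not overlap, all lower in single-housed mice, as for 2.4% of all genes tested. DESeq2 called 5 of the 27, among 8 genes called over all genes, and limma-voom called 0. The genes of this list with the smallest p in edgeR were Fosb, an AP-1 subunit gene, and the zinc-finger factor genes Egr2 and Egr4. Fosb was at 11.0 ± 0.781 CPM in single-housed mice, against 18.0 ± 0.669 CPM in group-housed mice (SD, n = 3 each; log2 difference −0.71, SE 0.0941). Egr2 was at 3.22 ± 0.284 CPM in single-housed mice, against 10.7 ± 3.71 CPM in group-housed mice (−1.74), and Egr4 differed by −0.85 (SE 0.146). The 2 genes with higher levels were Atf3 and Maff, named after their values were seen.

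Delayed primary and secondary response genes, which follow later and partly depend on the early factors, showed a smaller shift. Of 24 tested, 18 were lower and 6 higher, with a median of −0.13, and 0 passed in edgeR, DESeq2 or limma-voom. At an unadjusted p under 0.05, 4 were lower in edgeR, as were 0.727% of all genes tested. Nptx2, a neuronal pentraxin gene, was at 78.2 ± 8.88 CPM in single-housed mice, against 97.0 ± 5.86 CPM in group-housed mice (−0.31, SE 0.0942, n = 3 each). Ptgs2, which encodes cyclooxygenase 2, differed by −0.54 (SE 0.159), and Dusp6 by −0.46 (SE 0.138).

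**Figure D4:**
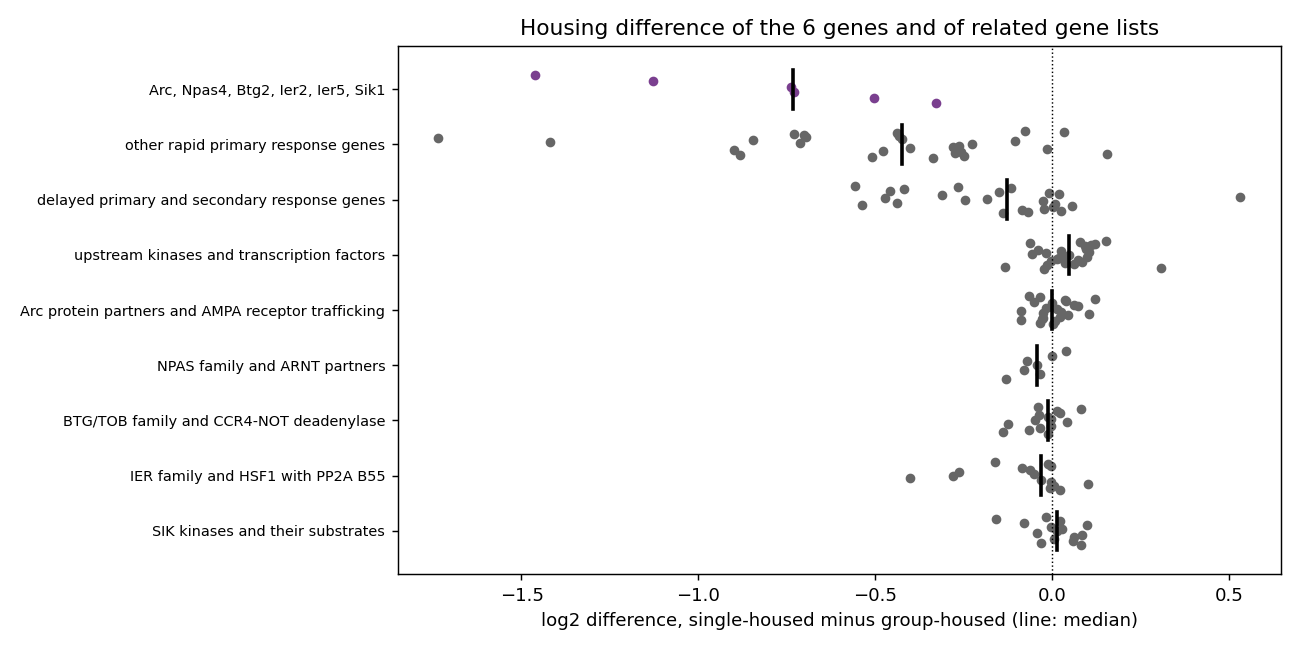
Log2 difference between single-housed and group-housed mice (horizontal axis) for the 6 genes and for each measured gene of 8 related lists (points), with the list median as a line. The 6 genes run from −1.46 to −0.33, and the medians of the lists other than rapid and delayed response genes lie between −0.04 and 0.05.

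Genes that act upstream of the 6, or on their products, had medians near 0. Of 27 upstream kinases and transcription factors 8 were lower and 19 higher (median 0.05), with the smallest p for Rps6ka5 (0.31, SE 0.157), Camk2b (0.12, SE 0.0758) and Elk1 (0.10, SE 0.0759). Of 24 Arc partners and AMPA receptor trafficking genes 11 were lower and 13 higher (median 0.00053), with the smallest p for Camk2b, which is in both lists, then Gsk3b at 0.10 (SE 0.0850) and Sh3gl2 at −0.09 (SE 0.0935). None of either list passed the adjusted threshold in edgeR, and 0 had an unadjusted p under 0.05. Without group-housed replicate 1 the counts turned, to 19 of 27 upstream genes and 17 of 24 Arc partners lower. Leaving out single-housed replicate 2 left 5 upstream genes lower, and 4 were lower when group-housed replicate 2 was omitted.

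The relatives and partners of Npas4, Btg2, Ier5 and Sik1 had list medians between −0.044 and 0.015. Among NPAS and ARNT genes 6 of 7 were lower (median −0.04), with Npas3 at −0.13 (SE 0.140), Npas1 at −0.08 (SE 0.127) and Arntl at −0.07 (SE 0.125). Among BTG/TOB and CCR4-NOT genes 11 of 15 were lower (median −0.01), with Cnot8 at −0.12 (SE 0.0724), Tob1 at −0.14 (SE 0.114) and Rqcd1 at −0.07 (SE 0.0722). Of 15 IER, HSF1 and phosphatase genes 12 were lower (median −0.03). Ier5l, the paralog of Ier5, was at 12.8 ± 0.414 CPM in single-housed mice, against 17.0 ± 4.22 CPM in group-housed mice (−0.40, SE 0.171, n = 3 each). Dnajb1 (−0.16, SE 0.0891) and Ier3 (−0.28, SE 0.157) followed in order of p. Ier5l and Ier3 are also in the list of other rapid primary response genes, so these lists are not independent. Of 15 SIK relatives, substrates and regulators 6 were lower and 9 higher (median 0.015), with Camk1 at −0.16 (SE 0.0873), Strada at 0.08 (SE 0.0796) and Ppp3ca at 0.08 (SE 0.0900). Ppp3ca and Prkaca are also in the list of upstream kinases and transcription factors. In these 4 lists 0 genes passed the adjusted threshold in edgeR, and 1, Ier5l, had an unadjusted p under 0.05. Fewer were lower without group-housed replicate 2 (2 NPAS and ARNT genes, 7 BTG/TOB and CCR4-NOT genes), without single-housed replicate 2 (3 NPAS and ARNT genes) and without group-housed replicate 3 (7 IER-related genes). Without single-housed replicate 1, 9 of 15 SIK-related genes were lower.

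The 6 genes also share short gene bodies, a property that their choice did not use directly. They and the other rapid primary response genes were listed under the same class name, so short spans in both describe that class. From first to last annotated exon base they span 1522 to 11543 bases (mm9), with a median of 3890 bases, where the median of all genes tested was 22247 bases. All 27 other rapid primary response genes were below that median too, with a median span of 3369 bases. For the delayed and secondary genes the median span was 12131 bases, and for the upstream kinases and factors 71745 bases. Ier2 and Ier5 lie in 1 exon block each, as do 3.69% of the genes tested. All 6 lie on the minus strand, as do 49.6% of the genes tested. No exon of another gene in the deposited table falls within the span of any of the 6, and no other GENCODE gene (GRCm38) overlaps them on either strand.

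**Figure D5:**
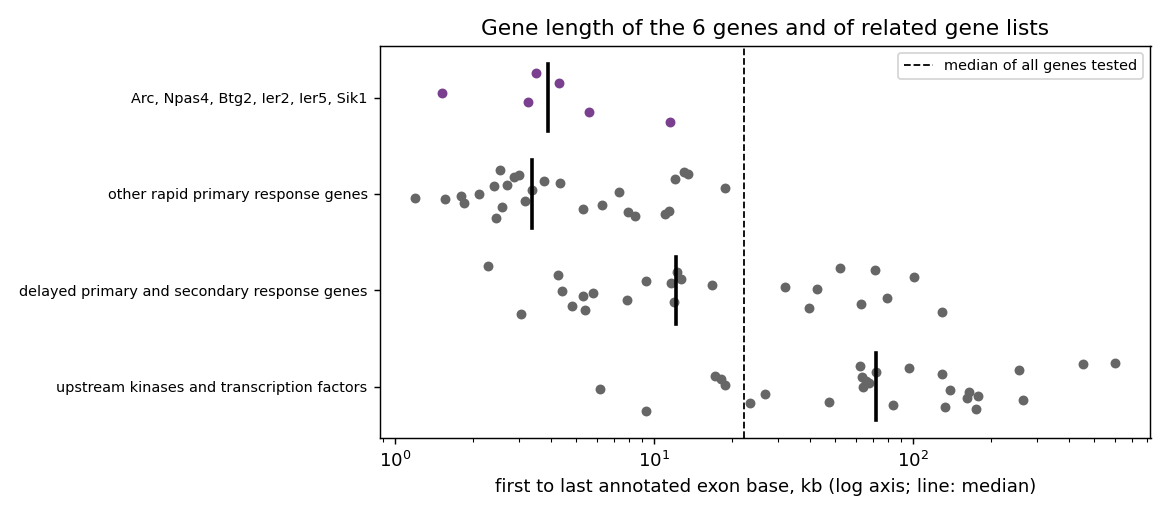
Distance from first to last annotated exon base in kilobases (horizontal log axis) for the 6 genes and 3 related lists, with list medians as solid lines and the median of all genes tested as a dashed line. All 6 genes lie left of the dashed line, the longest being Sik1 at 11543 bases.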

How the data were processed

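RNA sequencing counts of prefrontal cortex were analysed for 3 single-housed and 3 group-housed libraries. The deposited values are raw counts per gene, which the authors made with FastQC, STAR and featureCounts on mouse build mm9, per the submitters' processing notes. The sources used here do not give tool versions, the gene annotation or whether counting used strand. The deposited length column holds summed exon bases per gene, per the file headers, which is another kind of value and served for levels per kilobase.

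Libraries were grouped and numbered by their titles. Genes were filtered (filterByExpr, minimum count 10, minimum total 15), scaled by TMM and fitted with edgeR 4.0.16 (R 4.3.3), with Benjamini-Hochberg adjustment over 15258 genes and a threshold of 0.05. Standard errors were derived from the F statistic. Log2 CPM used a prior count of 2. The procedure was run on simulated counts with known changes between the groups. These held no shifts in tissue composition between libraries, so that run bears on the code and not on the results above. Chi-square per degree of freedom was 8.49 to 40.1 between any 2 libraries, so no pair agreed within sampling noise. Named genes are the 6 members, the 3 genes of smallest p from each list and the 3 nearest profiles per member. The members and lists were chosen with earlier results of these data known. Alternatives used DESeq2 1.42.0 and limma 3.58.1.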

Additional observations from a re-analysis of the deposited data

How the results depend on the processing

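With another scale, filter or test, the 6 genes kept their negative log2 differences. The TATATAA motif was added after the sequences were seen. When each library was left out in turn, the differences ranged from −1.83 to −0.91 for Arc, −1.45 to −0.22 for Npas4, −1.08 to 0.066 for Btg2, −0.94 to −0.27 for Ier2, −0.61 to −0.36 for Ier5 and −0.51 to −0.23 for Sik1. The end nearest 0 came from leaving out group-housed replicate 1 for Arc, Npas4, Btg2 and Ier2, and replicate 3 for Ier5 and Sik1.

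The labels do not state that replicate numbers pair the samples. The correlation of same-numbered deviations across genes was 0.27, −0.32 and 0.17. Between differently numbered libraries it ran from −0.43 to 0.35, so these values cannot decide whether samples were paired. With a replicate block the log2 differences were −1.40 (Arc), −0.86 (Npas4), −0.52 (Btg2), −0.66 (Ier2), −0.49 (Ier5) and −0.32 (Sik1), and 0 genes were called over all genes.

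The count of genes called, 0 in the main test, was 8 with DESeq2, 0 to 1 when a library was left out, and 4 (Egr1, Capn11, Nptxr and Arc) on the 3 libraries with low striatal markers. That fit has 1 single-housed library, and Arc was chosen on this contrast, so its call there is no test of it. With the striatal covariate, 5 of 27 upstream genes and 7 of 24 Arc partners were lower. On the 3 libraries with low striatal markers, 13 upstream genes, 3 NPAS and ARNT genes and 10 SIK-related genes were lower. Leaving out 1 library at a time gave 4 to 19 lower upstream genes, 8 to 17 lower Arc partners, 2 to 7 lower NPAS and ARNT genes, 7 to 10 lower BTG/TOB and CCR4-NOT genes and 7 to 13 lower IER-related genes. The cause of these changes was not tested. Counts lower among other rapid primary response genes were 22 to 27 of 27.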
